A study of Mus musculus with 6 samples.

Results

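The genes described here are 8 genes of cellular cholesterol handling in mouse quadriceps, a thigh muscle: Npc1, Npc2, Lipa, Hmgcs1, Sqle, Srebf2, Insig1 and Abca1. They were taken by gene symbol from a table of 23314 genes. Npc1 was picked because it was among the few genes that differed between the genotypes in an earlier pass over these data, and the others were added for their place in the same pathway. The difference between the genotypes is therefore described for these 8 genes and not tested. Of the 8, 7 had a mean of at least 1 FPKM over all libraries and entered the test across genes. Sqle, at a lower mean, did not. FPKM divides the fragments of a gene by transcript length and library size, so levels of different genes can be set side by side.

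The study measured RNA of quadriceps from mice of 2 genotypes at 2 months of age. MyoCre mice (Myogenin-Cre/+) carried a Cre driven by Myogenin, a gene of differentiating muscle, and served as controls. K15SKO mice (Myogenin-Cre/+;K15F/F) carried the same Cre with both copies of Klf15 floxed, so that the gene is deleted where the Cre acts, and other cells of the tissue, such as those of fat, vessels and the immune system, would keep it. Each group had 3 libraries, numbered here as in the labels, and the labels do not say that they came from separate animals, so the spread between libraries may be partly technical. Values are listed below in the order of libraries 1, 2 and 3, with MyoCre as the controls and K15SKO as the knockouts.

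Cells take up cholesterol in lipoproteins, and lysosomal acid lipase, the product of Lipa, frees it from its esters inside the lysosome. NPC2, a soluble protein of the lysosome lumen, hands the freed cholesterol to NPC1, a protein of the lysosome membrane, which passes it on to the rest of the cell. Loss of either NPC protein causes Niemann-Pick disease type C, in which cholesterol builds up in lysosomes. The cell senses sterols in the endoplasmic reticulum, where INSIG1 holds back SREBP2, the product of Srebf2. When sterols are scarce, SREBP2 is released and switches on synthesis genes such as Hmgcs1 and Sqle. When sterols are plentiful, the nuclear receptor LXR switches on Abca1, which exports cholesterol.

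Promoters of genes at the sensing, synthesis and export steps are shown because these genes carry the control by sterols that the values below bear on. RefSeq promoters on GRCm38.p6 were used for 6 of the 8 genes. Npc1 and Sqle are not among them, so the sites described below are not reported for either gene. Each sequence is the 250 bases before the RefSeq start, 5′ to 3′ on the strand of the gene. In GENCODE coordinates the starts of Srebf2 and Insig1, at 82147181 and 28071363, lie inside these windows. Capitals mark the core of the sterol regulatory element, searched as TCACNCCA, and the E-box, CACGTG, 2 kinds of site that SREBP proteins can bind.
Hmgcs1 (chr13:119690101-119690350, plus strand): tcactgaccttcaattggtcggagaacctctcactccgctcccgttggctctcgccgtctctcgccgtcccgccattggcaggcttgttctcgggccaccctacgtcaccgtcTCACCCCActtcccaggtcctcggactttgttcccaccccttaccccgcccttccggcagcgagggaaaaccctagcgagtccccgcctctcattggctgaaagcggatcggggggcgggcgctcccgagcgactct
Srebf2 (chr15:82147019-82147268, plus strand): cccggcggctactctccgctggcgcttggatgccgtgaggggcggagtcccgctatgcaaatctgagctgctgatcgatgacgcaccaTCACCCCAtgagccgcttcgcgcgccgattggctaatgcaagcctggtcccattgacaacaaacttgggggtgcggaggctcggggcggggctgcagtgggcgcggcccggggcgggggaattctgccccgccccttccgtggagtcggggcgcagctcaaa
Insig1 (chr5:28071162-28071411, plus strand): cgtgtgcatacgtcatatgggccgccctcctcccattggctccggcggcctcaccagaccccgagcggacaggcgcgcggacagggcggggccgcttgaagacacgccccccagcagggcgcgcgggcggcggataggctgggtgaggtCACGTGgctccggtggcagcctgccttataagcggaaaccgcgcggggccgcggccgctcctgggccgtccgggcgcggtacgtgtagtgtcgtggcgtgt
Abca1 (chr4:53159896-53160145, minus strand): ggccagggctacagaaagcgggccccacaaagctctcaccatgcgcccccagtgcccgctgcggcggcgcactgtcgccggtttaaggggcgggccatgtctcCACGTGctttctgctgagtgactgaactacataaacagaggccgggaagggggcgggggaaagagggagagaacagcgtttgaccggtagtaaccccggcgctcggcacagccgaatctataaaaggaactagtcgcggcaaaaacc

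Both strands were searched in these windows and in the same 250 bases of 32851 promoters of the RefSeq table. The sterol element core was found in Hmgcs1 and Srebf2, starting 137 and 162 bases before the RefSeq start, and in 3.67% of all promoters. The E-box was found in Insig1 and Abca1, starting 101 and 147 bases before the RefSeq start, and in 6.02% of all promoters. The CCAAT box, CCAAT, the site of the SREBP partner NF-Y, was found in 5 of the 6 genes, all but Abca1, and in 33.8% of all promoters. The GC box, GGGCGG, which Sp1 and Krüppel-like factors can bind, was found in 5 of the 6, all but Lipa, and in 32.7% of all promoters. No 2 of these motifs overlapped in the 6 genes. A match is a description of letters and not of binding.

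The targeted gene, Klf15, stood at 35.2, 28.4 and 30.5 FPKM in the controls, against 2.22, 21.7 and 5.32 FPKM in the knockouts, with all 3 knockouts below every control and K15SKO 2 far nearer to the controls than the other 2. The K15SKO libraries were unlike each other in other ways too. All 10 muscle fibre markers were present in each library, with summed levels of 54544 to 63681 FPKM in MyoCre and 39313 to 63395 FPKM in K15SKO. Markers of other cells also varied. The 12 macrophage markers summed to 45.3 to 54.1 FPKM in MyoCre and to 351, 197 and 40.9 FPKM in the knockouts. The 10 adipocyte markers summed to 608, 1150 and 420 FPKM in MyoCre 1 to 3 and to 182 to 238 FPKM in K15SKO. The 12 liver markers summed to 14.0 to 26.2 FPKM in MyoCre and to 79.1, 5876 and 17.1 FPKM in the knockouts, with Cps1 at 0 in all MyoCre libraries and Fga, Fgb, Serpina1a and Tat at 0 in 1 MyoCre library each. Trf, at 12.2, 25.0 and 12.8 FPKM in MyoCre 1 to 3 and 4.89 FPKM in K15SKO 3, made up most of the MyoCre sums. The other 11 were higher in every knockout than in any control, as were 13.4% of the genes tested. Alb stood at 21.1, 2203 and 4.36 FPKM in the knockouts, against 0.298 to 1.13 FPKM in MyoCre. Over the genes tested, K15SKO 3 correlated with the MyoCre libraries at 0.968 to 0.975 (Pearson, across genes) and with K15SKO 1 and 2 at 0.942 and 0.880. In whole tissue, fewer cells of a type and less RNA per cell cannot be told apart. Read totals were not used here. Relative depth was the inverse of the most common ratio to MyoCre 1, over genes above 0 and under 0.1 FPKM in both libraries. It put the depth of the libraries at 0.779 to 1.57 times that of MyoCre 1.

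**Figure D1:**
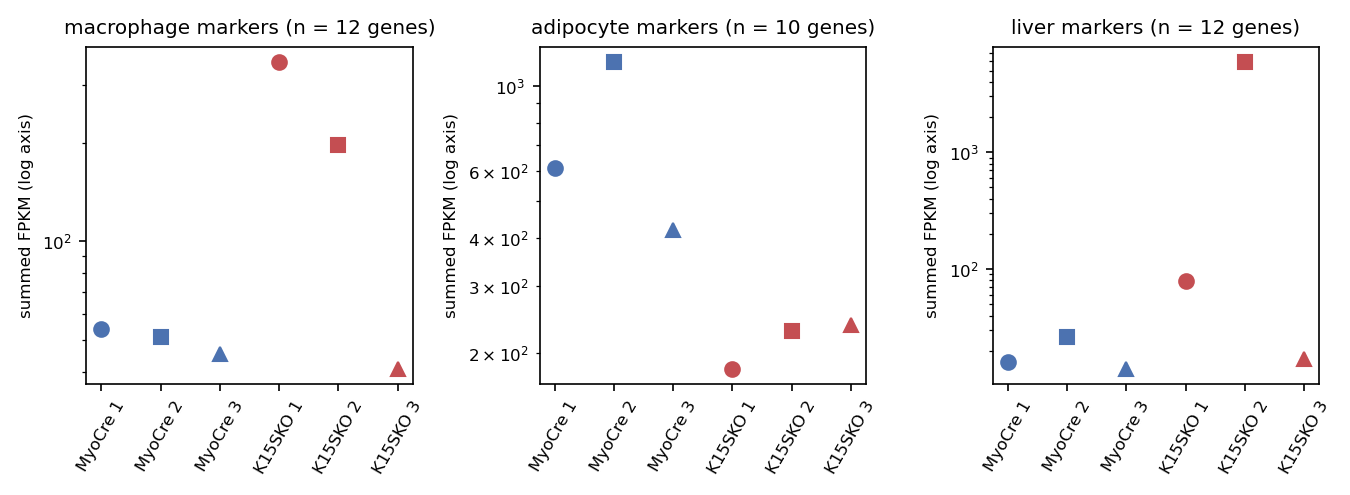
Summed FPKM of the macrophage, adipocyte and liver marker lists (log axes) in each library, with MyoCre in blue and K15SKO in red. Macrophage sums stand high in K15SKO 1 and 2 and liver sums in K15SKO 2. Adipocyte sums are higher in every MyoCre library than in any K15SKO library.

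Npc1 stood at 35.9, 29.8 and 25.7 FPKM in the controls, against 6.24, 8.98 and 7.08 FPKM in the knockouts. The groups did not overlap, and the lowest control lay far above the highest K15SKO library. The means were 30.5 ± 5.14 and 7.43 ± 1.40 FPKM (SD, n = 3 each), so the MyoCre mean was 4.10 times the K15SKO mean. On the log2(FPKM + 1) scale, which understates the change of low genes, the difference was −1.90 (SE 0.17), and 34 of the 11607 genes tested had a lower one. The difference ran from −2.03 to −1.78 with each library left out in turn. The 3 K15SKO libraries kept 20.5%, 29.5% and 23.2% of the MyoCre mean.

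The marker sums of each knockout stand beside its Npc1 level as follows. K15SKO 3 had a macrophage marker sum below that of every MyoCre library and a fibre marker sum within the MyoCre range. Its Npc1, at 7.08 FPKM, lay between the other 2 K15SKO libraries. Single markers did not all follow these sums. In K15SKO 3 the fibre marker Des, at 1437 FPKM, lay above every control and Myl1, at 8324 FPKM, below every control. The macrophage marker Itgam, at 0.365 FPKM, lay above every control there. K15SKO 2, with the most liver RNA, had the highest Npc1 of its group, and without it the difference was −2.03. The order of Npc1 in K15SKO 1, 3 and 2, from low to high, was also the order of Klf15. In MyoCre the orders differed, with Npc1 lowest in MyoCre 3 and Klf15 lowest in MyoCre 2. With 3 libraries per group these orders are a description only. The adipocyte marker sum was lower in all 3 K15SKO libraries, as Npc1 was. Of its 10 markers, Pck1 and Cidea overlapped between the groups. Pck1 was highest in K15SKO 2, at 109 FPKM against 7.66 to 65.6 FPKM in MyoCre. The part of fat, fibre, macrophage or liver RNA in the Npc1 difference was not tested.

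The coefficient of variation of Npc1 was 16.8% in MyoCre, above that of most genes, and 18.9% in K15SKO, where the median over the genes tested was 9.81% and 18.7%. In the controls Npc1 was the most abundant of the 8 genes and stood above 89.5% to 92.5% of all genes in the table. In K15SKO it stood above 73.7% to 77.8%, and both Npc2 and Hmgcs1 exceeded it in all 3 libraries.

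Npc1 lies on chromosome 18 from 12189692 to 12236400 on the minus strand of GRCm38, a span of 46709 bases. Its end overlaps Rmc1, on the plus strand, over 967 bases, so that reads there cannot be told apart where strand was not used, and the sources used here do not say whether it was. Rmc1 stood at 5.12, 5.10 and 5.63 FPKM in the controls, against 4.95, 4.51 and 4.94 FPKM in the knockouts, a log2 difference of −0.12. The other nearest tested genes, chosen by position after the data were seen, went different ways. Riok3, a kinase of ribosome maturation, was at 68.3 ± 5.68 against 49.4 ± 2.95 FPKM (SD, n = 3 each) in MyoCre and K15SKO. Ttc39c, on the other side, was at 1.18 to 1.21 FPKM in MyoCre and at 3.57, 17.4 and 1.17 FPKM in the knockouts. Osbpl1a, farther on that side at 519 kb from Npc1, was at 17.8 ± 1.28 against 26.9 ± 2.73 FPKM (SD, n = 3 each). Groups were apart for Riok3 and Rmc1, both lower, and for Osbpl1a, higher, where 24.7% of the genes tested had groups apart.

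**Figure D2:**
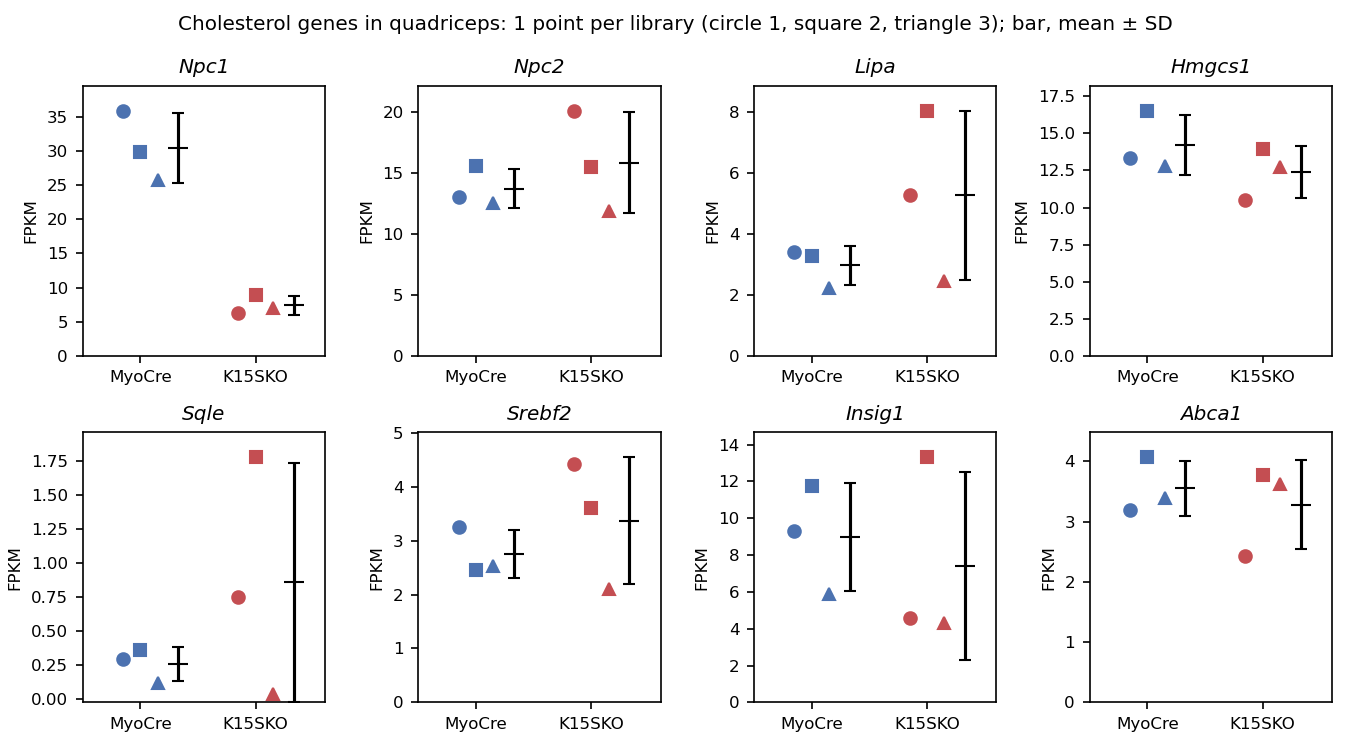
FPKM of the 8 cholesterol genes, 1 panel each, in MyoCre (blue) and K15SKO (red) libraries, with circle, square and triangle for libraries 1, 2 and 3 and a bar for the mean ± SD. Npc1 is the gene whose 2 groups do not overlap; Lipa, Sqle and Insig1 have K15SKO 2 as their highest library.

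Npc2, the partner that delivers cholesterol to NPC1, stood at 13.0, 15.6 and 12.5 FPKM in the controls, against 20.1, 15.5 and 11.8 FPKM in the knockouts. The groups overlapped, with K15SKO 1 the highest and K15SKO 3 the lowest library of all. The means were 13.7 ± 1.62 and 15.8 ± 4.14 FPKM (SD, n = 3 each), and the log2 difference of 0.17 (SE 0.20) was −0.01 without K15SKO 1. Macrophages are rich in lysosomes, and K15SKO 1 also had the highest macrophage marker sum, 351 FPKM; its part in the Npc2 level was not tested.

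The balance of the 2 partners thus differed between the groups. Npc1 was at 2.76, 1.92 and 2.05 times the FPKM of Npc2 in MyoCre 1 to 3 and at 0.310, 0.579 and 0.598 times in K15SKO 1 to 3. Npc1 was the more abundant transcript in each control library and Npc2 in each K15SKO library. This ratio uses the Npc1 values that led to its choice and is given as a description.

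Lipa, which frees cholesterol from its esters, stood at 3.39, 3.28 and 2.23 FPKM in the controls, against 5.29, 8.04 and 2.47 FPKM in the knockouts. K15SKO 1 and 2 were above every control, and K15SKO 3 lay inside the MyoCre range. The means were 2.97 ± 0.642 and 5.27 ± 2.78 FPKM (SD, n = 3 each), a log2 difference of 0.57 (SE 0.35), which became 0.94 without K15SKO 3, with the groups then apart as for 61.2% of the genes tested, and 0.25 without K15SKO 2. The libraries with high Lipa were those with high macrophage markers, at 351 and 197 FPKM against 40.9 FPKM in K15SKO 3. Liver markers, at 79.1 and 5876 FPKM, were highest there as well. Neither part in the Lipa level was tested.

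Of the 8 further genes listed with these for cholesterol leaving the lysosome, 7 were tested and 0 passed limma's test at an adjusted p of 0.05, a rule that called 0.0517% of all genes. At an unadjusted p under 0.05, 2 were higher and 0 lower, where that rule took 16.5% of all genes. The median log2 difference of the 7 was 0.16, beside −0.02 over all genes tested. Osbpl1a, which encodes a sterol-binding protein of late endosomes, stood at 17.7, 16.5 and 19.1 FPKM in the controls, against 27.3, 29.4 and 23.9 FPKM in the knockouts. Its groups did not overlap, but limma's adjusted p was 0.248. Gramd1b, a carrier of sterol from the plasma membrane to the endoplasmic reticulum, was at 1.49 ± 0.272 against 2.76 ± 0.802 FPKM (SD, n = 3 each), with an adjusted p by limma of 0.275. Stard3, a cholesterol transporter of late endosomes, was at 8.60 ± 0.142 against 10.2 ± 1.46 FPKM, and Osbp, a sterol carrier of the Golgi, at 24.6 ± 2.26 against 27.5 ± 1.19 FPKM (limma adjusted p = 0.373 and 0.442). Osbpl1a and Gramd1b passed the test without K15SKO 3, a comparison in which limma called 2802 genes, 24.2% of those tested.

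The rest of the lysosome was set beside Npc1 with 25 genes of its hydrolases, membrane proteins and regulators. All 25 were tested, 0 passed over all genes with limma, and at an unadjusted p under 0.05 there were 1 higher and 2 lower. Their median log2 difference was 0.06, with a range from −0.40 to 0.63. Gaa, the lysosomal glucosidase that degrades glycogen, was at 132, 117 and 147 FPKM in the controls, against 85.8, 103 and 111 FPKM in the knockouts (limma adjusted p = 0.284). Ppt1, a lysosomal thioesterase, was at 5.19 ± 0.590 against 8.09 ± 2.18 FPKM (SD, n = 3 each), with an adjusted p by limma of 0.283. Naglu, which degrades heparan sulfate, was at 2.70 ± 0.168 against 3.77 ± 0.869 FPKM (limma adjusted p = 0.310). The log2 difference of Npc1, −1.90, lay below the whole range of these 25 genes. Npc1 was chosen for its difference in these data, so its place outside that range is a description only.

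**Figure D3:**
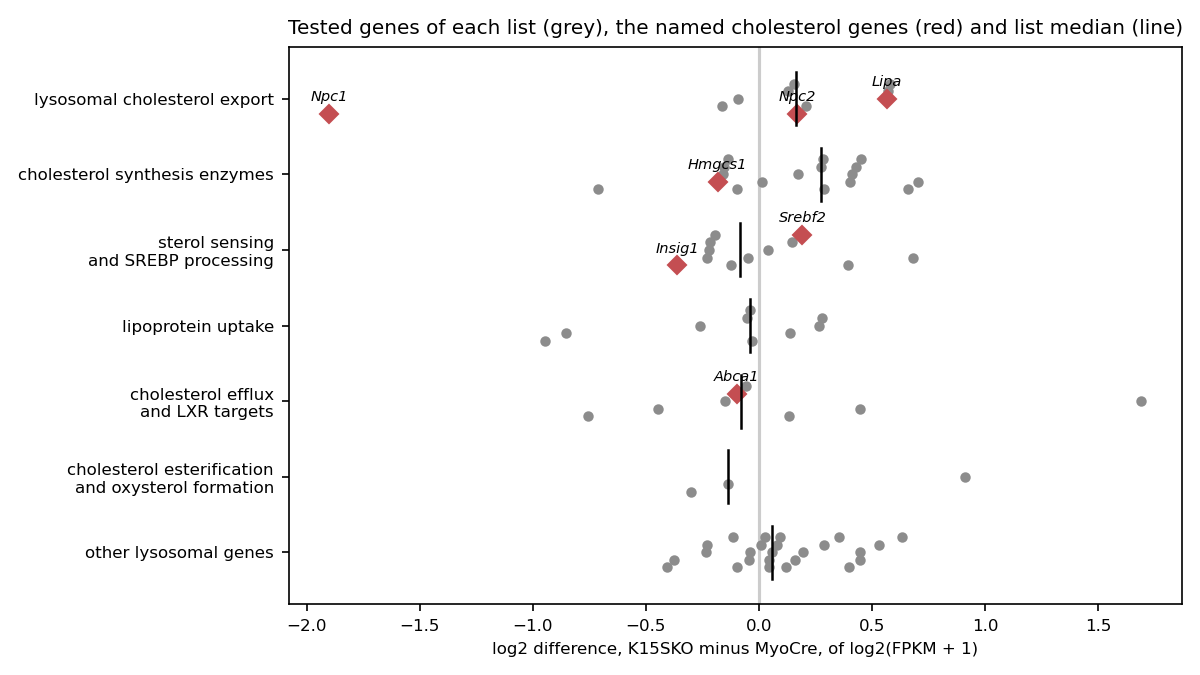
Log2 difference, K15SKO minus MyoCre, of log2(FPKM + 1) for the tested genes of each pathway list, with the cholesterol genes described here in red, other genes in grey and a line at each list's median. Npc1, chosen for its difference in these data, lies at −1.90, to the left of all other genes plotted. The list medians lie between −0.14 and 0.28.

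Hmgcs1, whose product makes HMG-CoA, the precursor of mevalonate, stood at 13.3, 16.5 and 12.8 FPKM in the controls, against 10.5, 13.9 and 12.8 FPKM in the knockouts. The groups overlapped, with K15SKO 1 the lowest and MyoCre 2 the highest library. The means were 14.2 ± 2.04 and 12.4 ± 1.75 FPKM (SD, n = 3 each), a log2 difference of −0.18 (SE 0.15) that ran from −0.27 to −0.08 over the libraries left out in turn. Without K15SKO 2 the groups no longer overlapped, as for 32.4% of the genes tested, and K15SKO 3 lay just under the lowest control.

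Sqle, squalene epoxidase, a rate-controlling step later in the pathway, was low: 0.297, 0.365 and 0.118 FPKM in the controls, against 0.755, 1.78 and 0.0383 FPKM in the knockouts. K15SKO 1 and 2 were above every control, and K15SKO 3 was below every control. Sqle had the widest spread of the 8 genes, with a coefficient of variation of 102% in K15SKO. The order of the K15SKO libraries, 2 over 1 over 3, was that of the liver markers, 5876, 79.1 and 17.1 FPKM; their part in the Sqle level was not tested.

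The library with the most liver RNA also led the other enzymes of synthesis. Of 18 further enzymes 16 were tested, and K15SKO 2 was the highest of the 6 libraries for 12 of them, 75.0%, where it was the highest for 14.2% of all genes tested. The median of these enzymes against the MyoCre mean was 0.08, 0.78 and −0.09 on the log2(FPKM + 1) scale in K15SKO 1 to 3. These are medians over enzymes that went both ways, and single enzymes of K15SKO 1 and 3 lay well above or below the controls. The part of the liver RNA in the values of K15SKO 2 was not tested. Limma called 0 of the 16, with 0 higher and 1 lower at an unadjusted p under 0.05, and their median log2 difference was 0.28.

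Msmo1, a sterol methyl oxidase, was at 1.91 ± 0.121 FPKM in MyoCre (SD, n = 3) and at 3.37, 7.48 and 1.85 FPKM in the knockouts (limma adjusted p = 0.358). Mvk, mevalonate kinase, was at 5.22 ± 0.478 against 6.64 ± 1.23 FPKM (SD, n = 3 each), with an adjusted p by limma of 0.337. Hsd17b7, a sterol reductase of the last steps, went the other way, at 3.61, 3.74 and 3.73 FPKM in the controls, against 1.16, 3.0 and 1.71 FPKM in the knockouts (limma adjusted p = 0.272). All 3 of its K15SKO values were below the controls, with K15SKO 2 the nearest to them.

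**Figure D4:**
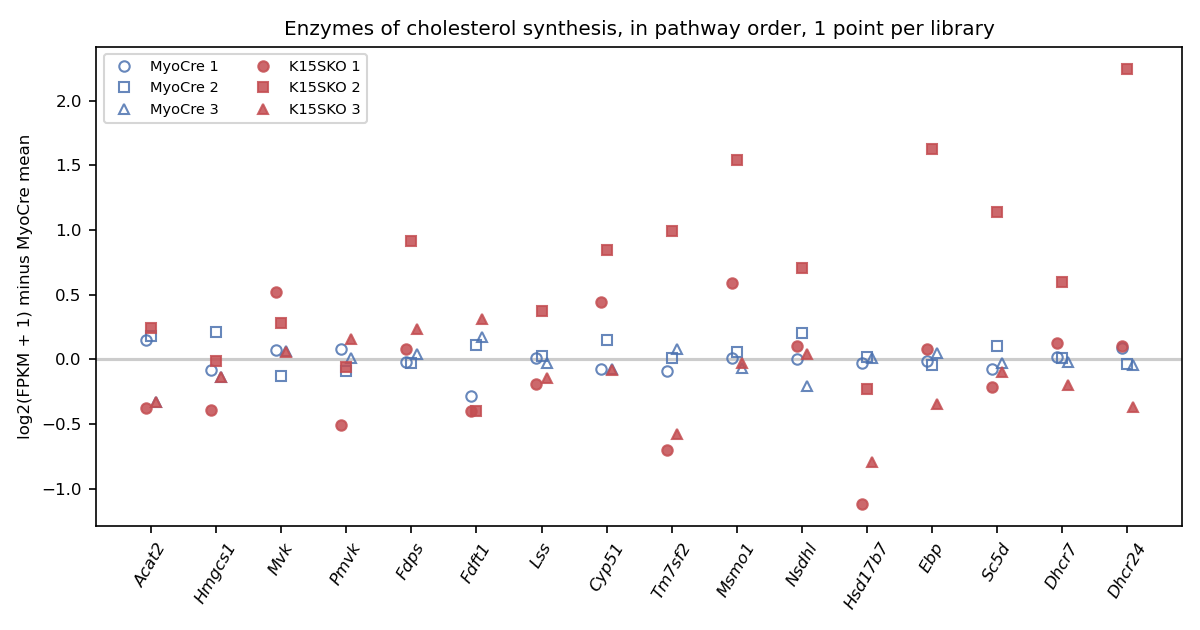
Log2(FPKM + 1) of 16 of the 17 tested synthesis enzymes, each minus its MyoCre mean, 1 point per library, with open blue symbols for MyoCre and filled red symbols for K15SKO. K15SKO 2, the library with the most liver RNA, is the highest library for most enzymes, and Hsd17b7 has all 3 K15SKO libraries below the controls.

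Srebf2, the transcription factor of sterol synthesis, stood at 3.26, 2.45 and 2.52 FPKM in the controls, against 4.42, 3.60 and 2.10 FPKM in the knockouts. K15SKO 1 and 2 were above every control, and K15SKO 3 was below every control. The means were 2.74 ± 0.445 and 3.37 ± 1.18 FPKM (SD, n = 3 each), a log2 difference of 0.19 (SE 0.22) that was 0.02 without K15SKO 1 and 0.42 without K15SKO 3. Srebf2, like Hmgcs1, carries the sterol element core shown in its promoter, and the 2 genes had their highest K15SKO value in different libraries, K15SKO 1 for Srebf2 and K15SKO 2 for Hmgcs1.

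Insig1, which retains SREBP2 and is itself an SREBP target, stood at 9.31, 11.7 and 5.89 FPKM in the controls, against 4.60, 13.3 and 4.33 FPKM in the knockouts. K15SKO 1 and 3 were below every control, and K15SKO 2 was above every control. The means were 8.98 ± 2.94 and 7.42 ± 5.12 FPKM (SD, n = 3 each), a log2 difference of −0.36 (SE 0.43). Without K15SKO 2 the K15SKO mean was 4.46 FPKM, the difference was −0.82 and the groups did not overlap; without K15SKO 3 it was −0.11. Insig1 is abundant in fat and liver. In MyoCre 1 to 3 its order was that of the adipocyte markers, 608, 1150 and 420 FPKM, and K15SKO 2 had the highest liver marker sum. Neither part in the Insig1 level was tested.

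Of 10 further genes of sterol sensing and SREBP processing all were tested, limma called 0, and 1 was higher and 0 lower at an unadjusted p under 0.05. Their median log2 difference was −0.09. Erlin1, a membrane protein in the turnover of sterol-sensing proteins, was at 2.11 ± 0.189 against 3.11 ± 0.696 FPKM (SD, n = 3 each), with an adjusted p by limma of 0.294. The proteases that cut SREBP free, Mbtps1 and Mbtps2, were at 9.37 ± 0.191 against 8.11 ± 1.26 FPKM and at 5.88 ± 0.567 against 4.88 ± 0.636 FPKM (limma adjusted p = 0.401 and 0.353). Rnf139, a sterol-regulated ubiquitin ligase, was at 20.3 ± 2.45 against 17.3 ± 0.359 FPKM (limma adjusted p = 0.352).

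Uptake was represented by 10 genes, of which 9 were tested; limma called 0, and 0 were higher and 1 lower at an unadjusted p under 0.05, with a median log2 difference of −0.04. Vldlr, the lipoprotein receptor abundant in muscle, stood at 78.5, 92.9 and 99.4 FPKM in the controls, against 33.5, 35.3 and 82.7 FPKM in the knockouts. K15SKO 1 and 2 were far below the controls, and K15SKO 3 lay among them (limma adjusted p = 0.286). Lpl, lipoprotein lipase, was at 158, 178 and 141 FPKM against 60.7, 57.7 and 188 FPKM, with K15SKO 1 and 2 below the controls and K15SKO 3 above them (limma adjusted p = 0.356). Lrp1 and Scarb1, receptors for remnant and high-density lipoproteins, were at 3.57 ± 0.207 against 4.70 ± 1.61 FPKM and at 6.57 ± 1.30 against 8.65 ± 4.56 FPKM (SD, n = 3 each), with adjusted p-values by limma of 0.488 and 0.639. The fibre marker sums of the knockouts, 39313, 39443 and 63395 FPKM, and the sums of 8 endothelial markers, 52.3, 62.3 and 103 FPKM against 72.6 to 90.2 FPKM in MyoCre, were likewise low in K15SKO 1 and 2 and higher in K15SKO 3. Des, a fibre marker on that list, went the other way, at 2376, 2018 and 1437 FPKM against 1005 to 1191 FPKM in MyoCre. The part of fibre or endothelial RNA in the Vldlr and Lpl levels was not tested. Without K15SKO 3, Vldlr and Lpl passed the test.

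Abca1, the exporter, stood at 3.19, 4.07 and 3.40 FPKM in the controls, against 2.44, 3.78 and 3.63 FPKM in the knockouts. The groups overlapped, with K15SKO 1 the lowest library and MyoCre 2 the highest. The means were 3.55 ± 0.461 and 3.28 ± 0.734 FPKM (SD, n = 3 each), a log2 difference of −0.10 (SE 0.16) that was 0.05 without K15SKO 1. Its level relative to Hmgcs1 was 0.250 ± 0.0138 in MyoCre and 0.262 ± 0.0271 in K15SKO, and that of Npc1 relative to Hmgcs1 was 2.17 ± 0.468 and 0.598 ± 0.0442 (SD, n = 3 each).

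Of 9 further genes of efflux and LXR action, 7 were tested; limma called 0, and 0 were higher and 2 lower at an unadjusted p under 0.05, with a median log2 difference of −0.06. Nr1h3, which encodes LXR alpha, was at 9.45 ± 0.308 against 10.5 ± 0.921 FPKM (SD, n = 3 each), and its partner Rxra at 64.9 ± 4.19 against 47.9 ± 9.75 FPKM (limma adjusted p = 0.454 and 0.283). Smpdl3a, a phosphodiesterase induced by LXR, was at 68.2, 73.3 and 64.9 FPKM in the controls, against 29.2, 35.5 and 62.7 FPKM in the knockouts (limma adjusted p = 0.283). Apoe, an apolipoprotein of macrophages and liver, was at 43.5, 59.5 and 39.6 FPKM against 129, 870 and 31.6 FPKM (limma adjusted p = 0.421). It was high in the 2 libraries with the highest macrophage and liver marker sums. Rxra and Smpdl3a passed the test without K15SKO 3.

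Of 7 genes of esterification and oxysterol formation 3 were tested and limma called 0, with 0 at an unadjusted p under 0.05. Cyp27a1, the sterol 27-hydroxylase, was at 53.6 ± 4.09 against 45.4 ± 15.9 FPKM (SD, n = 3 each), and Nceh1, a cholesteryl ester hydrolase, at 8.75 ± 1.81 against 7.97 ± 2.30 FPKM (limma adjusted p = 0.544 and 0.727). Cyp7b1, an oxysterol hydroxylase of liver, entered the test through K15SKO 2 alone, at 6.50 FPKM where the other libraries had 0.0220 to 0.120 FPKM.

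Of the 8 genes 1, Npc1, had groups that did not overlap, where 24.7% of the genes tested had groups apart and 11.3% had K15SKO lower. Among the 77 tested genes of the pathway and lysosome lists other than these 8, limma called 0, 10 had an unadjusted p under 0.05 and 15 had groups apart, 7 higher and 8 lower. Those shares are no larger than the 16.5% and 24.7% over all genes. Without K15SKO 3 limma called 20 of the 77 (26.0%), 13 higher and 7 lower, close to the 24.2% of all genes tested that it called in that comparison; besides those already said to pass without it, Erlin1, Lrp1, Msmo1, Naglu and Ppt1 passed as higher and Mbtps1 as lower. Of the 8 genes described, 4 then had groups apart, Lipa, Sqle and Srebf2 higher in K15SKO and Npc1 lower. In that comparison 61.2% of the genes tested had groups apart, 26.7% with K15SKO higher and 34.4% with K15SKO lower. Without K15SKO 2 the groups were apart for 3 of the 8, Npc1, Hmgcs1 and Insig1, all lower, where 32.4% of the genes tested had groups apart and 14.4% had K15SKO lower. These counts were not tested against the shares, and Npc1, which is in both, was chosen for its difference.

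By level, the order in each MyoCre library began with Npc1, Hmgcs1, Npc2 and Insig1 and ended with Sqle. Hmgcs1 and Npc2 lay close, at 14.2 ± 2.04 and 13.7 ± 1.62 FPKM (SD, n = 3 each), with Hmgcs1 slightly higher in each MyoCre library. Abca1, Lipa and Srebf2, at 3.55 ± 0.461, 2.97 ± 0.642 and 2.74 ± 0.445 FPKM, changed order between the MyoCre libraries. In K15SKO the first place was Npc2 in libraries 1 and 2 and Hmgcs1 in library 3, and Npc1 and Insig1, at 7.43 ± 1.40 and 7.42 ± 5.12 FPKM, did not differ beyond their spread.

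The genes whose log2 values followed Npc1 most closely over the 6 libraries were Fam20b, a xylose kinase of proteoglycan synthesis, Zfp454, Slc12a2, a sodium, potassium and chloride cotransporter, Zfp119b and Lipt2, a lipoyl transferase. Their Pearson correlations with Npc1 were 0.992, 0.991, 0.987, 0.987 and 0.985. The 6 libraries share their 2 groups, so the correlations mostly restate that these genes were lower in all 3 K15SKO libraries. Their differences were smaller than that of Npc1. Fam20b was at 31.4, 29.5 and 30.3 FPKM in the controls, against 20.3, 22.7 and 20.6 FPKM in the knockouts, a log2 difference of −0.50. Slc12a2 was at 22.6 ± 1.41 against 17.7 ± 0.635 FPKM and Lipt2 at 5.04 ± 0.270 against 3.88 ± 0.105 FPKM (SD, n = 3 each).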

How the data were processed

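RNA came from a Roche kit and libraries from Illumina's standard method, per the labels' protocols. STAR, Cufflinks and Cuffdiff were run on mm10, per the submitters' processing notes, with no version found. The authors deposited FPKM for 23314 genes in 6 libraries (unit inferred from these tools and the value range). FPKM keeps no counts, so no counting interval is given. Columns were matched to samples by description, with 0 left over. The design text gives n = 4 and 3 libraries per group were analysed here. Coordinates are from GENCODE M21 (GRCm38, the mm10 assembly) and promoters from RefSeq.

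The test was limma (3.58.1, under R 4.3.3, eBayes with a trend) on log2(FPKM + 1) over the 11607 genes whose mean reached 1 FPKM, two-sided, Benjamini-Hochberg adjusted over all genes, threshold 0.05; 3 against 3 libraries allow an exact permutation p of 0.1 at the smallest, so none is given. An exact 0 may be an estimate that failed. Sums and plots were made with Python 3.11.15. On simulated data of 11171 genes for this comparison, with the MyoCre spread in both groups, the test found 90.7% of 97 genes with a set log2 change of 1 and 97.9% of 95 genes with one of 2, and made 7 false calls; the real K15SKO libraries spread more widely.

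The 8 genes, the 7 pathway lists and the 5 marker lists were chosen with earlier results of these data known. Named besides the 8 genes are up to 4 genes per pathway list with the smallest unadjusted p and the 5 genes most correlated with Npc1, not counting predicted genes (Gm and a number, Rik), pseudogenes (-ps), Mir and Snor; some genes that this rule names are not reported here. Alternatives tried were quantile and median-of-ratios scaling, a filter at 5 FPKM or none, pseudocounts of 0.5 and 0.1, no trend in eBayes, the replicate number as a block, leaving out genes at 0 in a whole group, and each library left out in turn.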

Additional observations from a re-analysis of the deposited data

How the results depend on the processing

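The log2 difference of Npc1 lay between −2.03 and −1.78 over 15 alternatives. As a description only, since Npc1 was chosen on this contrast, it passed limma's threshold in 5 of the 15. Hmgcs1 and Insig1 stayed below 0 and Lipa and Srebf2 above 0 in every alternative that tested them, while Npc2 reached −0.01 and Abca1 0.05 without K15SKO 1. The median over the tested members of the 8 ran from −0.27 to 0.04. Limma called 6 genes in all, 3 with no filter, 3 with the replicate block, 0 without genes listed at 0 in a whole group (1930 at an unadjusted p under 0.05), and between 3 and 2802 with a library left out. The low end came without MyoCre 1 or MyoCre 2 and the high end without K15SKO 3. Among the 77 pathway and lysosome genes other than the 8 it called 0 in every alternative other than the one without K15SKO 3, where it called 20, for a range of 0 to 20 over the libraries left out. Replicate numbers are shared between the groups by label only: deviations of same-numbered libraries correlated at 0.0024, 0.0851 and 0.0942, none over 0.1, and not every library was closest to its own number, and the block called 0 of the 77. Sqle lay under 1 FPKM in 5 of 6 libraries and was left out of the main test by the filter at a mean of 1 FPKM. The part of depth in its low values was not tested.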
